A study of Mus musculus with 4 samples.

Results

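The blood-brain barrier is formed by the endothelial cells of brain vessels, and 10 of its best known transporter and tight junction genes were described here, out of 27487 genes listed in 4 single-cell tables of mouse cortex. The members were chosen by name: *Slc2a1*, *Abcb1a*, *Abcg2*, *Slco1a4*, *Slco1c1*, *Cldn5*, *Ocln*, *Tjp1*, *Mfsd2a* and *Slc7a5*. All 10 were found in the tables. The data are Drop-seq libraries, in which each mRNA copied in a droplet carries a cell barcode and a unique molecular identifier (UMI), so that a UMI count is a count of captured mRNA molecules. There were 4 libraries, a female wild-type (WT), a female Tg2576 (TG), a male wild-type and a male Tg2576 library, and sets of 4 values below are in this order. Each library pooled the cortex of 9 mice aged 24 weeks (36 mice in all). Tg2576 mice, strain B6;SJL-Tg(APPSWE)2576Kha, were heterozygous for a transgene of human amyloid precursor protein with the Swedish mutation, which the hamster prion promoter drives, and the wild-type mice were their littermates. All mice were perfused with saline, and their cortex was dissociated enzymatically into cells, so that only cells that survived this step were measured.

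Brain endothelial cells differ from those of most other organs in that claudins and occludin, tied to the cytoskeleton by scaffold proteins such as ZO-1, seal the gap between neighbouring cells. Solutes then have to cross the cells themselves. Uptake carriers bring in glucose, large neutral amino acids, thyroid hormone and lysophospholipids, while efflux pumps of the ABC family return many drugs and lipophilic compounds to the blood. Pericytes and smooth muscle cells (together, mural cells) and the end feet of astrocytes surround the endothelium.

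The members lie on 7 chromosomes of the mm10 build (RefSeq annotation of GRCm38.p6). *Slc2a1* (chr4:119108745-119137330) and *Mfsd2a* (chr4:122946850-122961194) share chromosome 4, 3809.5 kb apart. *Slco1c1* (chr6:141524354-141570177) and *Slco1a4* (chr6:141805438-141856284) are neighbours of the same solute carrier family, 235.3 kb apart on chromosome 6, which also holds *Abcg2* (chr6:58584491-58692451). The others are *Abcb1a* (chr5:8567091-8748575), *Tjp1* (chr7:65296165-65527850), *Slc7a5* (chr8:121881146-121907686), *Ocln* (chr13:100496504-100552718) and *Cldn5* (chr16:18776847-18778262). Each UMI stands for the 3′ end of a polyadenylated transcript of the gene, so isoforms that share an end were counted together. *Abcb1a* has the close paralog *Abcb1b*, and *Slco1a4* has *Slco1a5* and *Slco1a6*, so reads of these genes may have been shared between copies.

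The 250 bases before a transcription start are shown for 4 members, chosen because the window precedes the outermost annotated start and because their patterns below run from mostly endothelial (*Cldn5*, *Abcb1a*) to shared with other cell types (*Slco1c1*, *Slc2a1*). RefSeq held such windows for 9 of the 10 members, and *Slc7a5* had none. Capitals mark matches to 6 short motifs on either strand, with no overlap between different motifs. The GC box was searched for as GGGCGG. The TATA box was searched for as TATAAA. The core bound by TCF/LEF factors was written as CTTTGA. For forkhead factors the letters were GTAAACA. For SOX factors they were AACAAT. An ETS-type site was taken to be GGAAGT. The windows are chr16:18776597-18776846 on the plus strand for *Cldn5*, chr5:8566841-8567090 on the plus strand for *Abcb1a*, chr6:141524104-141524353 on the plus strand for *Slco1c1* and chr4:119108495-119108744 on the plus strand for *Slc2a1*.
Cldn5: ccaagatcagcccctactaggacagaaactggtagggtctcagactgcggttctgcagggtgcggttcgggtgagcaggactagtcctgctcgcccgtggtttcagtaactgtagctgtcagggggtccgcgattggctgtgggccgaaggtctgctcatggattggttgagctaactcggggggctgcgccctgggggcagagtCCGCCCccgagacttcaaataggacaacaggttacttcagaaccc
Abcb1a: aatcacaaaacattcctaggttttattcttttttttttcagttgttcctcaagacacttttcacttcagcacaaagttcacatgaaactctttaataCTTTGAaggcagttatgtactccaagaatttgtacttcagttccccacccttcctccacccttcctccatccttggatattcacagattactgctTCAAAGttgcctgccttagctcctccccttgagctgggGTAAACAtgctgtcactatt
Slco1c1: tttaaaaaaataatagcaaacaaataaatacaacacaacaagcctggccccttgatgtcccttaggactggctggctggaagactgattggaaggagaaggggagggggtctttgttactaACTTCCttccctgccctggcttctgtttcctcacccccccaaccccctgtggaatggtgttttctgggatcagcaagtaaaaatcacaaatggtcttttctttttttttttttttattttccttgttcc
Slc2a1: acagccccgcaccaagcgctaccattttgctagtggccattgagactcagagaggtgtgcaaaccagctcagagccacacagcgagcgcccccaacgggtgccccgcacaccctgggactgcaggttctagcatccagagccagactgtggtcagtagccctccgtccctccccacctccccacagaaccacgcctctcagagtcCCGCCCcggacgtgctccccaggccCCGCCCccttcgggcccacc
The windows of *Abcb1a* and *Slco1c1*, and that of *Slco1a4*, which starts inside the annotated gene and is not printed, held 0 CpG dinucleotides and 40.4%, 42.8% and 39.2% G and C. Of all 32851 windows of this length, 7.87% held no CpG, and the median G and C content was 52.4%. *Cldn5* had 12 CpG and *Slc2a1* 13, against a median of 6 over all windows, and both windows held at least 1 GC box, a motif present in 32.74% of all windows. *Abcb1a* held 2 matches to the TCF/LEF core (in 13.83% of all windows) and 1 to the forkhead core (3.17%), *Slco1c1* held 1 ETS-type match (19.74%), and none of the 4 held the SOX core (9.42%) or a TATA box (12.37%). These are letter matches only.

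The tables held 1926857 to 2294296 UMIs per library. Cells with 200 to 7000 genes and at most 20% mitochondrial UMIs were kept (1010 to 1532 per library). Over all barcodes, kept or not, mitochondrial genes held 15.4%, 17.2%, 10.9% and 7.87% of the UMIs. This share was lowest in the male Tg2576 library, whose kept cells were also the shallowest (median 909 UMIs). Library pairs shared 2 to 4 cell barcodes. Reads assigned to mouse *App* were at 793, 1573, 1073 and 1505 CPM (UMIs of a gene per 1000000 UMIs) over all barcodes, higher in both Tg2576 libraries, and *Xist* was at 970 and 887 in the female and at most 1.49 in the male libraries. No library went against its label.

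Cells were clustered and named without the 10 members, so no member decided which cells were called endothelial. The members were chosen as known genes of the endothelium, and the cells were named by other endothelial genes. A high share of the members in these cells is therefore a description and not a test. Endothelial cells made up 954 of 4831 cells (146, 303, 197 and 308), and all 13 of their markers were at least 2-fold higher than in other cells in both clusters that carried the name. These cells held 19.2% of the UMIs of kept cells and 80.9% of the 23520 member UMIs in kept cells. The share was 89.4% for *Abcb1a*, 89.2% for *Slco1a4*, 89.0% for *Cldn5* and 87.4% for *Ocln*, it lay between 67.4% and 79.7% for *Mfsd2a*, *Slco1c1*, *Slc2a1*, *Abcg2* and *Slc7a5*, and it was 50.4% for *Tjp1*. Levels are given below as CPM within a cell type of a library. Because the assay counts transcript ends, CPM was compared between cell types and libraries for the same gene, and not between genes. In summed cells, less RNA per cell and fewer expressing cells cannot be told apart.

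Each of the 10 members had its highest mean CPM in endothelial cells. The second type was mural cells for 7 members, astrocytes for *Slco1c1* and *Mfsd2a*, and oligodendrocyte precursor cells (OPCs) for *Slc7a5*. The mural levels came mostly from mural cells that also carried UMIs of endothelial markers, as given below. The ranges of the 4 libraries in the first and second type overlapped only for *Slc7a5*. With 4 libraries paired between cell types, an exact permutation test cannot give a p below 0.125, so these orders are a description. Remarks below that the libraries of a genotype or sex lie above or below the others also describe 4 values only. How many of all genes show such an order was not counted. In the test of genotype in endothelial cells, given further below, 0 of the 10 members were called.

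*Slc2a1* encodes the glucose transporter GLUT1 of the barrier. Its endothelial level was 853, 754, 975 and 809 CPM (mean 848 ± 94.1 SD, n = 4 libraries). Both Tg2576 libraries were below both wild-type libraries. Mural cells followed at 485, 66.6, 596 and 458 CPM, the female Tg2576 library standing far below the others. Astrocytes had 77.8 to 103 CPM, oligodendrocytes 31.2 to 98.4 and microglia 23.8 to 28.8, while OPCs had 0 UMIs in every library, which allows up to 42.0 CPM (3 UMIs) in the deepest of them.

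*Abcb1a*, which encodes P-glycoprotein, had 3381, 3448, 3059.6 and 3117 CPM in endothelial cells (mean 3252 ± 192 SD, n = 4). The female libraries were slightly above the male, and the genotypes overlapped. Outside mural cells (533 to 1556 CPM), its mean stayed at or below 42.8 CPM in every named type, 76.0-fold below the endothelial mean in oligodendrocytes and 141-fold in microglia. Its paralog *Abcb1b* was distributed differently, with 35.4 ± 14.7 CPM (SD, n = 4) in endothelial cells and 71.0 ± 4.60 in microglia. *Abcg2* encodes the second main efflux pump, the breast cancer resistance protein. It was at 748, 752, 664 and 852 CPM in endothelial cells and at 44.0 to 65.0 CPM in microglia, where 121 UMIs were counted.

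The organic anion transporters *Slco1a4* and *Slco1c1* carry conjugated steroids and thyroid hormones. *Slco1a4* had 2747, 2824, 3046 and 3404 CPM in endothelial cells, the male libraries lying above the female. It was next highest in mural cells (400 to 1233 CPM), and choroid plexus cells had a mean of 87.0 CPM. The paralogs *Slco1a5* and *Slco1a6* had 7 and 6 UMIs in all endothelial cells.

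*Slco1c1*, which encodes a high-affinity thyroxine transporter, was spread over more cell types. Endothelial cells had 2562, 2260.3, 2813 and 2639 CPM, astrocytes 810, 742, 944 and 907, and choroid plexus cells 554, 294, 553 and 589, the lowest of these last resting on 4 UMIs. Endothelial and astrocyte ranges were separate, and astrocytes did not differ beyond their range from mural cells (511 to 1003 CPM). A UMI of *Slco1c1* was found in 43.3% to 53.5% of astrocytes and in 0.980% to 3.09% of microglia, a cell type taken here as the background of free RNA.

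Of the junction genes, *Cldn5*, the main claudin of the barrier, was at 2860.2, 3104, 2704 and 4355 CPM in endothelial cells (mean 3256 ± 751 SD, n = 4). The male Tg2576 library stood above the other 3, and both Tg2576 libraries were above both wild-type libraries. Outside mural cells (511 to 1969 CPM) its mean was at most 35.6 CPM in a named type. *Ocln*, encoding occludin, had few UMIs, with 159.6, 125, 119.8 and 173 CPM from 181 UMIs, and 0 to 67.7 CPM in mural cells.

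*Tjp1* encodes the scaffold ZO-1, which also serves junctions of other cells. Its endothelial level was 794, 518, 486 and 500.0 CPM, with the female wild-type library above the rest. It was the broadest member, with 271 to 333 CPM in mural cells, 117 to 174 in microglia, 74.6 to 164 in astrocytes and 68.6 to 126 in oligodendrocytes. The ranges of the last 3 types overlapped each other.

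*Mfsd2a* encodes a lysophosphatidylcholine transporter that imports omega-3 lipids and holds down transcytosis. It had 323, 258, 274 and 244 CPM in endothelial cells and 91.4, 67.5, 104 and 112 in astrocytes. In OPCs it had 16 UMIs in all, a pooled level of 112 CPM, against a pooled 96.4 CPM in astrocytes. *Slc7a5*, the large neutral amino acid transporter LAT1, had 344, 227, 424 and 343 CPM in endothelial cells, both Tg2576 libraries below both wild-type libraries. In OPCs it had 7 UMIs in all, so its second place there rests on very few molecules.

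**Figure D1:**
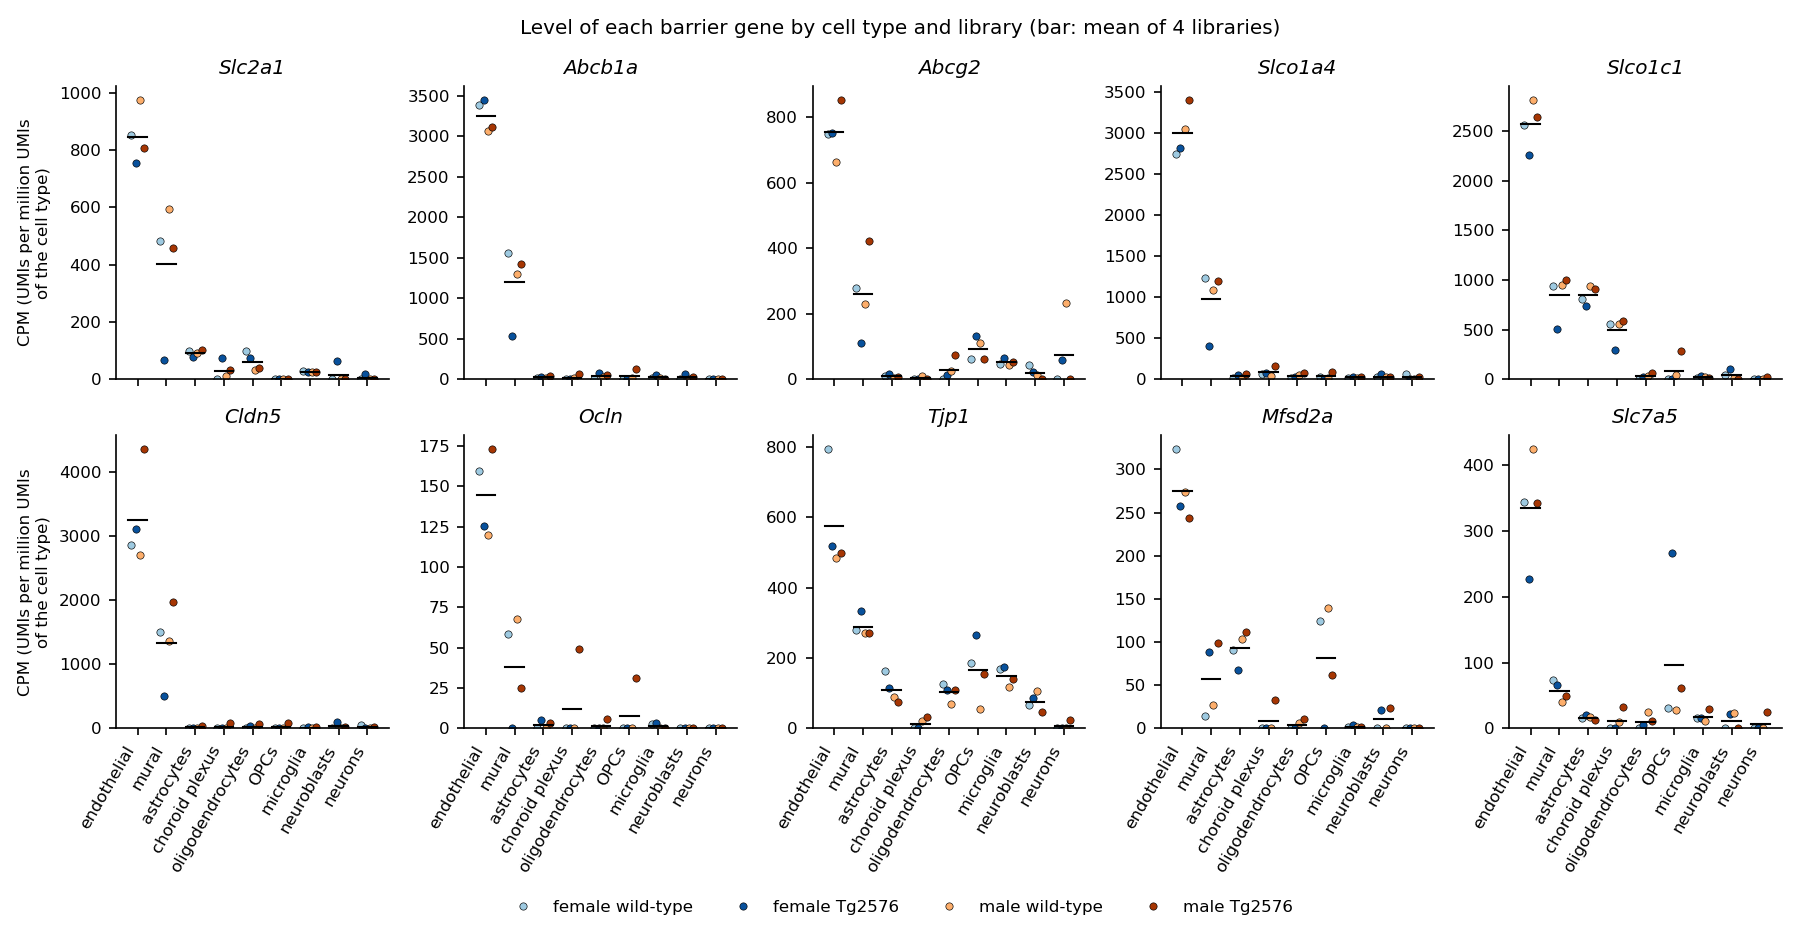
Level of each barrier gene in CPM (linear axes from 0, scaled per gene) in 9 named cell types, with 1 point per library and a bar at the mean of the 4 libraries. The endothelial mean lies highest for each gene, while for *Slc7a5* the female Tg2576 point of OPCs (267 CPM, from 2 UMIs) lies above the endothelial point of that library (227 CPM), and the female Tg2576 point is the lowest in mural cells for *Slc2a1*, *Abcb1a*, *Abcg2*, *Slco1a4*, *Slco1c1*, *Cldn5* and *Ocln*.

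Levels in other cell types were set beside those of the 13 endothelial markers, whose UMIs outside the endothelium served as the background of endothelial RNA in other cells. In microglia the markers had a median of 0.770% of their endothelial CPM, with *Pecam1* (16.1%) and *Eng* (12.7%), which myeloid cells also express, far above the rest. *Abcb1a*, *Slco1a4*, *Slco1c1*, *Cldn5* and *Mfsd2a* were between 0.416% and 0.808% there, near the markers. *Tjp1* (27.1%, 354 UMIs), *Abcg2* (6.84%, 121 UMIs), *Slc7a5* (5.68%, 43 UMIs) and *Slc2a1* (3.16%, 62 UMIs) were above the 11 other markers, the highest of which was at 0.980%. *Ocln* was at 1.20%, from 4 UMIs. In astrocytes, where the markers reached at most 2.11%, *Mfsd2a* was at 35.7%, *Slco1c1* at 33.9%, *Tjp1* at 19.8%, *Slc2a1* at 11.2% and *Slc7a5* at 4.92%. The 5 other members were between 0.512% and 1.24%. In OPCs, where the markers reached at most 5.71%, *Mfsd2a* was at 41.3% (16 UMIs) and *Tjp1* at 21.3% (17 UMIs). *Slc7a5* was at 15.1% (7 UMIs) and *Abcg2* at 12.0% (13 UMIs) there, and the remaining members were at most at 4.89%.

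**Figure D2:**
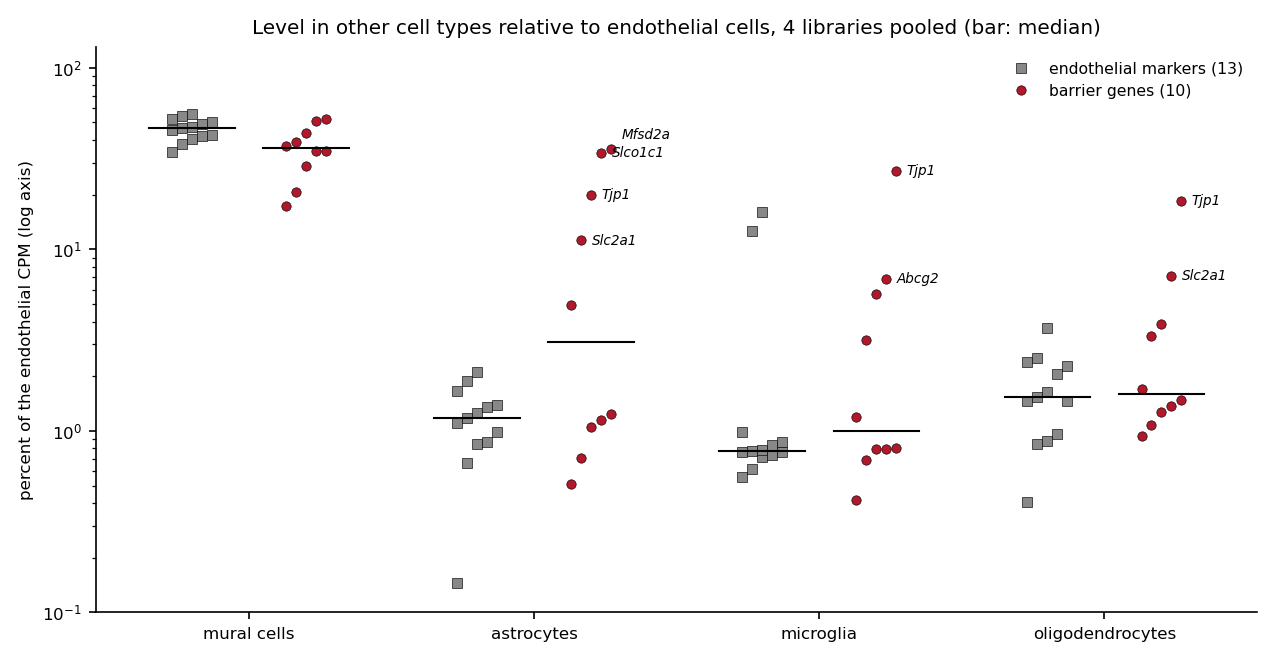
CPM in mural cells, astrocytes, microglia and oligodendrocytes as a percent of the endothelial CPM (log axis, 4 libraries pooled) for 13 endothelial markers (squares) and the 10 barrier genes (circles), with bars at the medians. In mural cells the medians are 46.3% for markers and 36.0% for barrier genes, while *Tjp1* stands above all markers in the 3 other types.

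Mural cells carried the members at a median of 36.0% of the endothelial level (17.3% to 52.2%), but they carried endothelial markers at 46.3% (34.2% to 55.6%) as well. The 164 mural cells were therefore split by the UMIs of the 13 endothelial markers in each cell. In the 80 cells with 0 such UMIs the members summed to 324 CPM and the 15 mural markers to 41146 CPM. In the 54 cells with 3 or more, the members summed to 8491 CPM, against 14983 in endothelial cells with 3 or more, and the mural markers to 16820.3 CPM. These 54 cells were also deeper (median 2515 against 631 UMIs), and a shallow cell is more likely to show 0 marker UMIs.

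Member by member, cells without an endothelial marker UMI had 0 UMIs of *Cldn5*, *Ocln* and *Mfsd2a* among 64842 (at most 56.9 CPM by the 95% Poisson interval), 30.8 CPM of each of *Slc2a1*, *Slco1a4* and *Slco1c1*, and 61.7 CPM of *Abcb1a*. *Tjp1* kept 139 CPM there (63.5 to 263, 9 UMIs). Of the members with mural cells second, only *Abcb1a* (4 UMIs) stood above its mean in the next named type, oligodendrocytes (42.8 CPM). In these mural cells *Slc2a1* was below its mean in astrocytes (92.1 CPM). *Abcg2* (15.4 CPM, 1 UMI) was below its mean in OPCs (92.4 CPM). Where 3 or more marker UMIs were present, *Cldn5* was at 2156 CPM, *Abcb1a* at 1882 and *Slc2a1* at 644. The doublet caller marked 2 of the 164 mural cells. Whether these barcodes held a mural and an endothelial cell together was not tested.

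**Figure D3:**
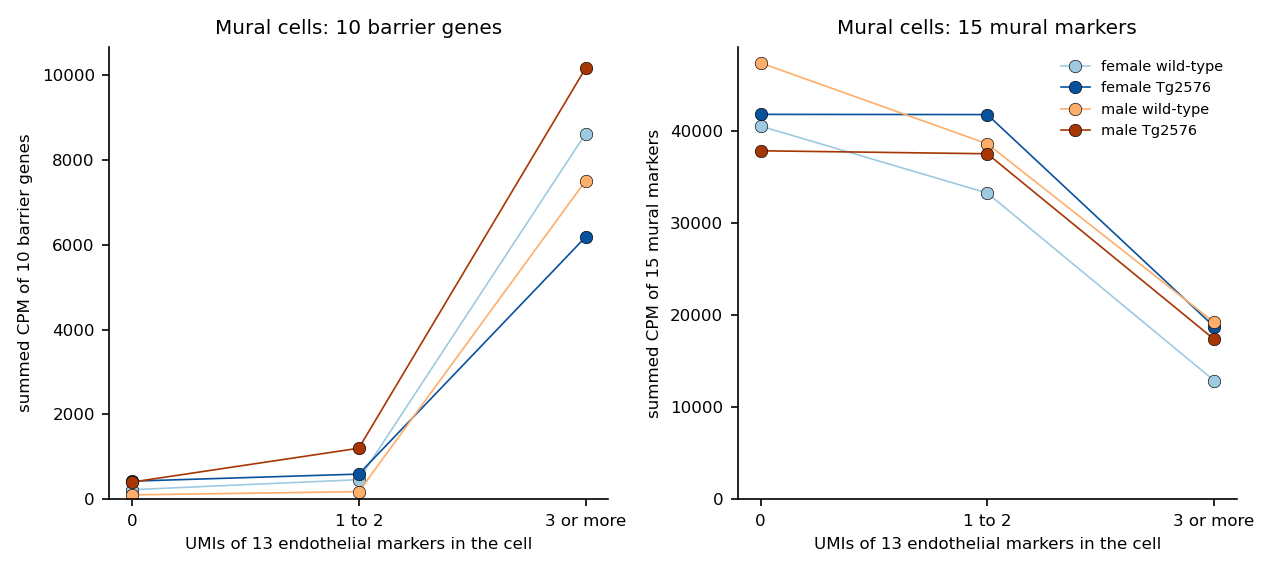
Summed CPM of the 10 barrier genes (left) and of 15 mural markers (right) in mural cells with 0, 1 to 2, or 3 or more UMIs of endothelial markers, with 1 line per library. The barrier genes lie between 99.0 and 423 CPM at 0 and between 6185 and 10168 CPM at 3 or more marker UMIs in the 4 libraries, and the mural markers are lower at 3 or more in each.

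Several members were detected in most single endothelial cells. Whether they occurred together more often than the share of each alone would give was not tested. After each cell was thinned to 500 UMIs, leaving out 174 of 954 shallower cells, a median of 4 of the 10 members was detected per cell in each library, and 87.9% to 91.4% of cells had 3 or more. Microglia thinned in the same way had a median of 0, and 0% to 0.685% had 3 or more. In thinned endothelial cells a UMI of *Abcb1a* was present in 84.7%, 80.5%, 77.3% and 75.1% of cells, of *Cldn5* in 62.6%, 74.6%, 70.9% and 83.7%, and of *Ocln* in 9.92%, 3.91%, 5.81% and 8.14%. The unthinned shares were 93.8%, 91.4%, 90.9% and 85.4% for *Abcb1a*, and 84.9%, 87.8%, 88.3% and 86.4% for *Cldn5*.

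The endothelial cells formed a cluster of 889 cells and a smaller one of 65 cells led by interferon-induced GTPases such as *Gbp4*, *Gbp2* and *Igtp*. The smaller cluster held 0, 42, 21 and 2 cells of the 4 libraries, so the female Tg2576 and male wild-type libraries contributed nearly all of it. Pooled levels in the smaller and larger clusters were 3342 and 3255 CPM for *Abcb1a*, 2951 and 3315 for *Cldn5* and 743 and 846 for *Slc2a1*. Within the female Tg2576 library, *Abcg2* was higher in the smaller cluster by a log2 ratio of 0.50 (95% interval 0.09 to 0.89), while in the male wild-type library the ratio was -0.66 (-1.60 to 0.15). In both libraries the intervals of the 8 members other than *Abcg2* and *Ocln* included 0. *Ocln* had 0 UMIs in the 21 male wild-type cells and 8 in the 42 female Tg2576 cells.

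Brain endothelium changes along the vessel from artery through capillary to vein. Cells were divided by whether they held more UMIs of 12 arterial genes (such as *Bmx* and *Gkn3*) or of 10 venous genes (such as *Nr2f2* and *Vwf*), and the members were not among these. This gave 238 more arterial and 206 more venous cells, with median depths of 1168 and 1234 UMIs. A further 495 cells had neither and 15 had equal numbers, and 89 arterial and 111 venous cells were assigned by a difference of 1 UMI. Both classes also carried capillary markers (6157 and 5533 CPM), so they are leanings along the vessel and not separate cell types. Cells with neither had 7258 CPM of the capillary markers and a median depth of 737 UMIs.

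*Slc7a5* differed most along this axis. It was at 160.4 CPM in the more arterial and at 399 CPM in the more venous cells, a log2 ratio of 1.32 (95% counting interval 0.89 to 1.75). *Slc7a5* was higher on the venous side in 4 of 4 libraries (1.31, 0.91, 1.15 and 2.17). The 495 cells with neither held it at 424 CPM, and the 15 cells with equal numbers at 188 CPM (6 UMIs). By library, cells with neither held it at 443, 354, 624 and 344 CPM and the more venous cells at 453, 218, 503 and 512. The more arterial cells were below both in each library (183, 116, 226 and 114 CPM). Between the more venous cells and those with neither, the order varied by library. *Slco1a4* (0.55, 0.43 to 0.66), *Abcg2* (0.52, 0.28 to 0.76) and *Tjp1* (0.48, 0.21 to 0.76) were also higher on the venous side in all 4 libraries. The *Tjp1* ratios were 0.12, 0.56, 1.14 and 0.06, and without the male wild-type library the summed ratio was 0.29 (-0.02 to 0.60). So was *Ocln* (0.46), but its interval of -0.12 to 1.04 included 0. *Cldn5* (0.20) and *Abcb1a* (0.14) leaned the same way in 3 of 4 libraries, and without the female Tg2576 library they were 0.14 and 0.07 with intervals that included 0. Cells with neither held *Cldn5* at 3480 and *Abcb1a* at 3424 CPM, against 3398 and 3329 in the more venous cells.

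On the arterial side, *Slc2a1* was at 948 CPM against 696 in the more venous cells, a log2 ratio of -0.44 (-0.67 to -0.22), with 3 of 4 libraries in this direction and the female Tg2576 library at 0.04 (-0.68 without that library). *Mfsd2a* (-0.28) and *Slco1c1* (-0.12) had intervals that included 0. These intervals, like all those given here, cover counting error only. Cells with neither held *Mfsd2a* at 329 CPM, against 259 in the more arterial and 213 in the more venous cells.

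**Figure D4:**
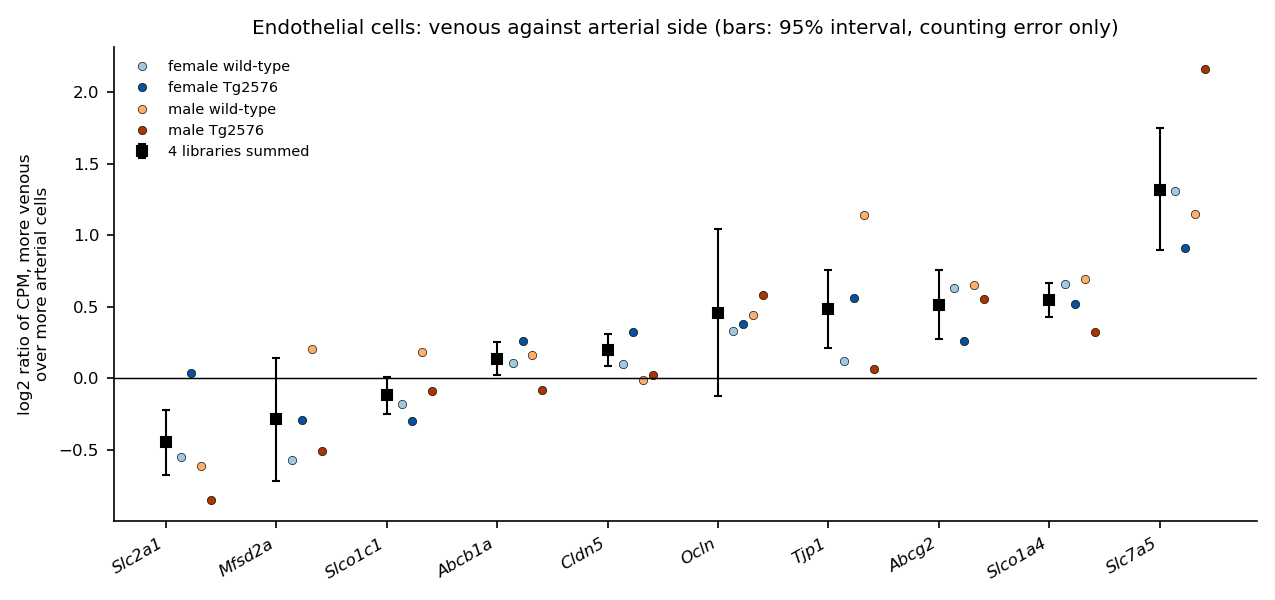
Log2 ratio of CPM in more venous over more arterial endothelial cells for each barrier gene, ordered by the ratio over the 4 libraries summed (squares, with 95% counting intervals), beside the ratio in each library (circles). *Slc7a5* lies highest, between 0.91 and 2.17 in the libraries, and *Slc2a1* lowest at -0.44.

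Genotypes were compared in endothelial cells in each sex and, since each sex and genotype had 1 library, a test was possible only for an effect shared by both sexes. In this test (edgeR quasi-likelihood, sex as a covariate, 1 residual degree of freedom), 0 of the 10 members passed a Benjamini-Hochberg adjusted p of 0.05 and 1 (*Slc7a5*) had an unadjusted p under 0.05. DESeq2 called 0 of all genes, with 19 at an unadjusted p under 0.05. Over all 5572 genes tested 0.108% passed the adjusted threshold and 5.87% had an unadjusted p under 0.05. The median fitted log2 change of the members was -0.11, against -0.01 over all genes tested.

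Within a sex, counting intervals of the log2 ratio, Tg2576 over wild-type, lay below 0 for 3 members and above 0 for 0 in females, and above 0 for 3 and below 0 for 1 in males. Over all genes tested, 5.71% lay below and 5.85% above in females, and 6.44% above and 4.85% below in males. An interval narrows with the number of UMIs of a gene. Of these 7 intervals, only that of *Cldn5* in males excluded 0 in all 12 alternatives of filtering, clustering and scaling. The others did so in 11 (*Abcg2*), 10 (*Slc7a5* and *Tjp1*), 9 (*Slc2a1*), 8 (*Slco1a4*) and 7 (*Slco1c1*) of 12, with no change of sign.

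The largest within-sex ratio was that of *Cldn5* in males, from 2704 CPM in wild-type to 4355 CPM in Tg2576 cells (log2 0.69, 0.56 to 0.82), whereas in females it was 0.12 (-0.02 to 0.25). The shared effect was 0.35 ± 0.18 (SE) with an adjusted p of 0.835 by edgeR. It was 0.17 without the male Tg2576 library and 0.53 without the female Tg2576 library. After thinning, the share of cells with a *Cldn5* UMI in the male libraries was 70.9% (wild-type) and 83.7% (Tg2576). The male Tg2576 endothelial cells had the lowest mitochondrial share (median 5.85%, against 8.87% to 12.0% in the other 3) and the lowest depth (median 727 UMIs, against 980.0 to 1154.5), and the part of these differences in the ratio was not tested.

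*Slc7a5* was at 344 and 227 CPM in female and at 424 and 343 CPM in male wild-type and Tg2576 cells. The log2 ratios were -0.60 (-1.05 to -0.16) and -0.31 (-0.69 to 0.07), and the shared effect of -0.51 ± 0.21 (SE) had an unadjusted edgeR p of 0.026 and an adjusted p of 0.821. It lay at -0.28 without the female Tg2576 library and at -0.75 without the male Tg2576 library. *Slc2a1* had ratios of -0.18 (-0.44 to 0.09) in females and -0.27 (-0.52 to -0.02) in males, and a shared effect of -0.28 ± 0.19 (SE) with an adjusted edgeR p of 0.902. *Tjp1* was lower in the female Tg2576 library (-0.62, -0.90 to -0.33), with a ratio of 0.04 (-0.29 to 0.38) in males.

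*Abcb1a* had ratios of 0.03 in both sexes (intervals -0.10 to 0.15 in females and -0.10 to 0.16 in males), and these depended on the mitochondrial limit. With a limit of 10% the female ratio was -0.27 (-0.47 to -0.08) and the male -0.04, and with 5% they were -0.45 (-1.28 to 0.38) and 0.25 (0.01 to 0.50). The female Tg2576 library had a lower *Slco1c1* ratio (-0.18, -0.33 to -0.03), and the male Tg2576 library had higher ratios of *Abcg2* (0.36, 0.09 to 0.63) and *Slco1a4* (0.16, 0.03 to 0.29). *Ocln* and *Mfsd2a*, with 181 and 343 UMIs, had intervals that included 0 in both sexes. Whether ratios differed between the sexes could not be tested with 1 library each.

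**Figure D5:**
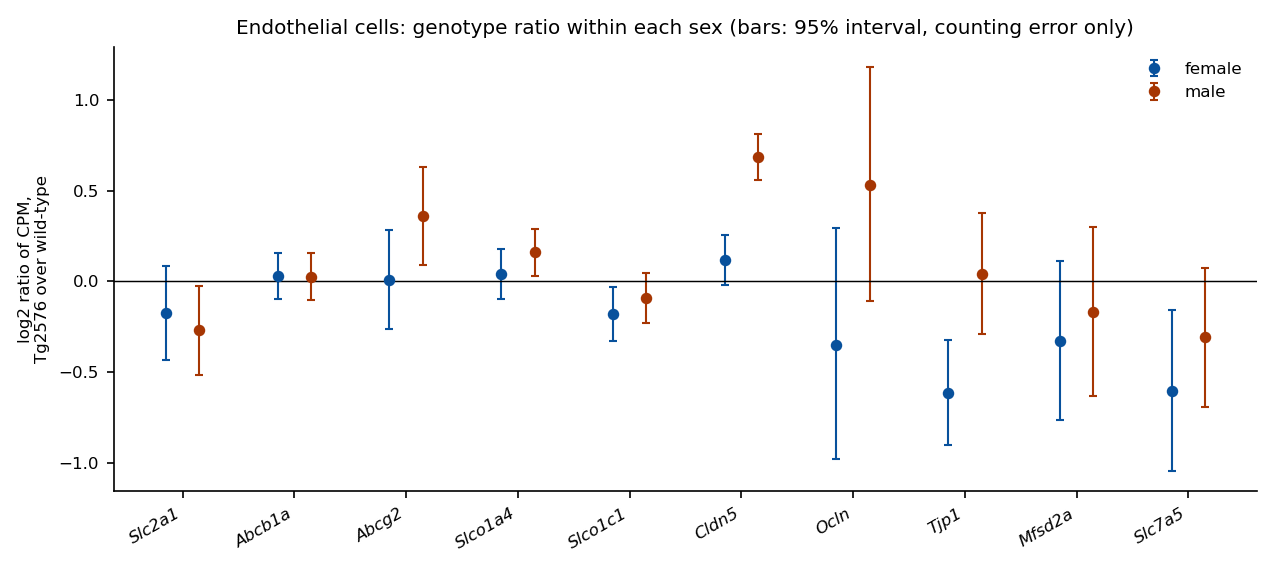
Log2 ratio of endothelial CPM, Tg2576 over wild-type, for each barrier gene in females and in males (points), with exact 95% intervals that cover counting error only. The male *Cldn5* ratio of 0.69 stands apart, and both *Abcb1a* ratios lie at 0.03.

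In mural cells 7 members had at least 50 UMIs and could be compared. In females the intervals of 5 of them lay below 0, namely *Slc2a1* (-2.86, from 33 UMIs to 3), *Slco1a4* (-1.63), *Cldn5* (-1.57), *Abcb1a* (-1.55) and *Slco1c1* (-0.88), where 8.83% of all mural genes tested lay below 0 and 6.08% above. *Tjp1*, the broad member, was at 0.26 (-0.82 to 1.31). After thinning to 500 UMIs per cell the female *Abcb1a* and *Cldn5* ratios were -0.53 and -0.90. With a mitochondrial limit of 10% they were -3.81 and -0.78, and that of *Slco1c1* was -2.94. In males only the interval of *Cldn5* excluded 0, on the other side (0.53, 0.16 to 0.90), and after thinning to 500 UMIs per cell that ratio was -0.07. Of all mural genes tested, 5.57% lay above and 4.93% below 0 in males. Cells with 3 or more endothelial marker UMIs were 15 of 34, 7 of 39, 16 of 36 and 16 of 55 mural cells, fewest in the female Tg2576 library. By edgeR 0 of the 7 members were called, against 0.256% of the 1562 genes tested, and *Slc2a1* alone had an unadjusted p under 0.05 (0.00958, adjusted 0.840), as 5.25% of all genes did. 

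Astrocytes, microglia, oligodendrocytes and choroid plexus cells gave 4, 5, 1 and 1 members with at least 50 UMIs, and edgeR called 0 of them in each, against a background of 0.113%, 0.525%, 0.324% and 0.0% of genes called. None of them had an unadjusted p under 0.05, as 7.69%, 8.85%, 7.16% and 3.79% of all genes tested did. DESeq2 called none of these members in the types where it gave a value. *Slco1c1* in astrocytes had ratios of -0.13 (-0.43 to 0.17) in females and -0.06 (-0.30 to 0.18) in males. *Tjp1* in microglia had 0.03 (-0.37 to 0.44) and 0.26 (-0.24 to 0.76). For *Abcb1a* in microglia the female ratio was 1.90 (0.78 to 3.16, from 9 UMIs to 29) and the male -1.63 (-3.74 to 0.13). The 29 UMIs lay in 14 cells. The female ratio was 0.24 without called doublets, 0.29 after thinning to 500 UMIs per cell and 0.69 with a mitochondrial limit of 10%. Of the 489 female Tg2576 microglia, 13 had 3 or more endothelial marker UMIs, against 4 of 440 in the female wild-type library. These markers include *Pecam1* and *Eng*, which myeloid cells also express. In the 13 female Tg2576 cells the members summed to 2458 CPM, against 369 in cells of that library with 0 marker UMIs. In the 4 female wild-type cells they summed to 255 CPM, against 326.

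The sexes were compared in the same endothelial fit. 0 of 10 members were called by edgeR, against 0.431% of all genes, and *Tjp1* alone had an unadjusted p under 0.05 (as did 614 of the 5572 genes tested, or 11%). Its effect, male over female, was -0.45 ± 0.20 (SE) with an adjusted p of 0.413 by edgeR. Without the female wild-type library it was -0.15, and without the female Tg2576 library -0.78. *Slc7a5* was next in size at 0.37 ± 0.21 (SE, adjusted edgeR p of 0.551), and this value was 0.06, 0.14 and 0.68 without the female Tg2576, male wild-type and female wild-type library.

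A wider list of 97 barrier genes set the members in context, of which 94 were in the tables and 61 passed the filter on low counts in endothelial cells. By edgeR 0 of the 61 passed the adjusted threshold between genotypes, 1 had an unadjusted p under 0.05 with a higher and 3 with a lower level in Tg2576 cells, and the median log2 change was -0.10. Over all 5572 genes these counts were 125 and 202, or 5.87% together, a share near that of the list (4 of 61). Of 22 tested regulators of the barrier 0 were called and 17 had a fitted value below 0 (median -0.22), against 2839 of all genes (median -0.01), and without the female wild-type library these were 14 of 23 (median -0.04). *Lef1* and *Foxq1*, transcription factors that act in brain endothelium, had fitted values of -0.21 and -0.27. The lowest fitted values of the list were those of the SOX factors *Sox7* (-1.08, from 52 UMIs) and *Sox18* (-0.91, from 83 UMIs), with log2 ratios of -2.08 and -1.86 in females and of -0.15 and -0.02 in males. Neither passed (adjusted p of 0.821 for both by edgeR).

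Among receptors, *Insr*, the insulin receptor, had 227, 133, 198 and 108 CPM, lower in both Tg2576 libraries, with within-sex ratios of -0.78 (-1.34 to -0.21) and -0.88 (-1.53 to -0.25). Its unadjusted edgeR p was 0.00192 and its adjusted p 0.412. *Igf1r*, the receptor of insulin-like growth factor, was at 1285, 940, 945 and 827 CPM (fitted -0.38, adjusted edgeR p of 0.833), and the transferrin receptor *Tfrc* had ratios of opposite sign in females (-0.68) and males (0.56).

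Of the nutrient carriers, the glutamine transporter *Slc38a5* had 130.2, 181, 106 and 259 CPM, with ratios of 0.47 (-0.15 to 1.13) in females and 1.29 (0.68 to 1.93) in males and an adjusted edgeR p of 0.609. *Slc12a2* and *Abca1* had the next highest fitted values (0.75 and 0.78, adjusted edgeR p of 0.897 for both), from 67 and 49 UMIs. Their CPM in microglia was 362% and 576% of the endothelial level, and the part of microglial RNA in these values was not tested. The taurine transporter *Slc6a6* was at 1562 to 1982 CPM and the zinc transporter *Slc39a10* at 1395 to 1550 CPM. Adhesion partners of the junctions, *Esam* and *Ctnna1*, had fitted changes of 0.12 and 0.14.

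The 6 genes that edgeR did call in endothelial cells were all lower in Tg2576 cells. They were *Fosb* (-1.49), *Nr4a1* (-1.44), *Hspa1b* (-1.37), *Atf3* (-1.22), *Fos* (-1.13) and *Klf4* (-1.01) (adjusted p of 0.00301 to 0.0237 by edgeR), immediate early genes, a heat shock gene and the transcription factor gene *Klf4*, and none of them was on the barrier lists. DESeq2 called none of them.

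The genes whose profile over 9 cell types and 4 libraries was most like that of a member were sought among 5908 genes outside the barrier lists (Pearson r of log2(CPM + 10) over 36 profiles, which share libraries and depth and are a description only). *Cldn5*, *Abcb1a* and *Slco1a4* had the same closest gene, *Ly6c1* (r of 0.97, 0.96 and 0.94), which was one of the endothelial markers used to name cells. *Slco1c1* was closest to *Ccdc141* (0.94), *Ocln* to *Pglyrp1* (0.91), *Slc2a1* to *Alpl* (0.90), *Tjp1* to *Sp1* (0.87), *Slc7a5* to *Emcn* (0.86), *Abcg2* to *Tek* (0.85) and *Mfsd2a* to *Rgcc* (0.83). *Emcn* and *Tek* were also endothelial markers used to name cells. Between members, *Cldn5* and *Abcb1a* were the closest pair (0.96), and *Abcg2* and *Slco1c1* the least alike (0.36).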

How the data were processed

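The authors deposited, per library, a table of raw UMI counts per gene symbol for 3000 cell barcodes. The submitters' processing notes name the mm10 build and Seurat 3.1.4. The aligner and annotation are not given in the sources used here. Libraries held 1926857 to 2294296 UMIs, and kept cells had a median of 909 to 1331.5 UMIs. Cells with 200 to 7000 genes and at most 20% mitochondrial UMIs were kept (a limit of 5% left 14.5% to 55.6% of the barcodes in this range of genes), and 4 barcodes with over 1% haemoglobin UMIs were left out, a choice made after seeing the data. Counts were transformed with sctransform 0.4.2 and clustered in Seurat 5.3.0 (R 4.3.3; 2500 variable genes, 19 principal components, resolution 0.5). Mitochondrial and sex-linked genes, *Malat1*, *App*, *Prnp*, the 10 members and 97 further barrier genes were not used for clustering. Cluster names needed 3 or more genes of 1 marker list with a 2-fold higher level than in other cells and 3 or more UMIs. A cluster of 209 cells with markers of several types, and a cluster of 51 cells led by *Npy*, *Fabp7* and *Frzb*, were not compared. The members and gene lists were chosen with earlier results of these data known.

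UMIs were summed per cell type and library. Levels have exact Poisson and ratios exact conditional binomial 95% intervals (scipy 1.17.1). Genotype and sex effects were tested with edgeR 4.0.16 (filterByExpr, TMM, quasi-likelihood, Benjamini-Hochberg over all genes of a cell type), and DESeq2 1.42.0 was an alternative. The test was tried on simulated counts. Scrublet (scanpy 1.11.5) called 89 of 4831 cells doublets, which stayed in except in 1 alternative. A member was compared between genotypes in a cell type where it had at least 50 UMIs. From the wider list the text names, by rule, the 2 genes of each role group with the highest CPM (a rule for naming only, since CPM is not compared between genes) and the 3 highest and lowest fitted values. The labels give no separate animals within a library, so p-values rest on 4 pooled libraries and not on animals. The 1 residual degree of freedom of a gene holds only how far its genotype effect differs between the sexes. The edgeR quasi-likelihood fit combines this with a variance estimated over all genes tested, so its p-values also rest on the spread of other genes.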

Additional observations from a re-analysis of the deposited data

Results flagged for a closer look

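*Cldn5* in mural cells had counting intervals on opposite sides of 0 in the sexes. The log2 ratio, Tg2576 over wild-type, was -1.57 in females (103 UMIs in wild-type, 23 in Tg2576) and 0.53 in males (101 and 159 UMIs). After thinning to 500 UMIs per cell the ratios were -0.90 and -0.07. With 1 library per sex and genotype the difference between the sexes was not tested. Mural cells with 3 or more UMIs of endothelial markers were 44.1%, 17.9%, 44.4% and 29.1% of the cells in the female wild-type, female Tg2576, male wild-type and male Tg2576 libraries, and mural cells without such UMIs held 0 UMIs of *Cldn5*. No other member with at least 50 UMIs in a cell type had intervals on opposite sides of 0 in females and males.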

How the results depend on the processing

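No paired analysis was possible because each sex and genotype had 1 library. In endothelial cells all 10 members stayed highest under each alternative that gave an endothelial cluster, except that 9 were highest with a mitochondrial limit of 5%, which left 3, 10, 32 and 127 endothelial cells. A resolution of 0.06 named no endothelial cluster, and the 5% limit no mural cluster. Between genotypes in endothelial cells, no member passed the adjusted threshold in any alternative. There 6 of 10 kept 1 sign of the fitted genotype effect throughout, the exceptions being *Abcb1a*, *Ocln*, *Slco1a4* and *Tjp1*. Among endothelial log2 ratios within a sex, *Abcb1a* turned in females at limits of 5% and 10% and after thinning. In males it turned in 5 of 12 alternatives, among them TMM scaling. *Abcg2* in females and *Tjp1* in males kept their sign in 8 of 12 alternatives. At a limit of 5% or 10% only, *Cldn5*, *Mfsd2a*, *Slc2a1* and *Slco1a4* turned in females. In males *Mfsd2a*, *Slc7a5* (to 0.41) and *Slco1c1* turned at 5% only. Leaving a library out of the venous over arterial ratios, chosen after seeing the data, changed no sign of a ratio. The male endothelial *Cldn5* ratio stayed between 0.62 and 0.74. The male mural *Cldn5* ratio reversed to -0.068 after thinning to 500 UMIs per cell, which moved 8 mural ratios, while the 5% limit moved 14 endothelial ratios.

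Counts of genes called depended on the processing, and the cause was not tested. The 6 genes called between genotypes in endothelial cells became 0 with DESeq2, without the sex covariate and with limits of 5% and 10%, 19 without a mitochondrial limit, 2 without the interferon-led cluster (an alternative chosen after seeing the data) and 4 to 13 with a library left out. They were 13 without the female wild-type library and 13 without the male wild-type library, where 11 were higher in Tg2576 cells against 0 with all libraries. Of genes called between sexes, 24 became 3 with DESeq2, 46 without the filter, 8 without the genotype covariate and 21 to 44 with a library left out (44 without the female wild-type, 42 without the female Tg2576 library). DESeq2 gave 0 in mural cells (main 4), 2 in astrocytes (6) and 0 in microglia (39), and leaving out the sex covariate gave 0, 1 and 0. Astrocytes had 3 with DESeq2 size factors and 11 without the filter, and microglia 20 without the filter. Choroid plexus cells (0) had 1 with DESeq2 size factors and 1 without the sex covariate. With a library left out the counts were 3 to 6 in mural cells, 0 to 4 in astrocytes (0 without female Tg2576, 1 without male wild-type, 2 without female wild-type), 3 to 9 in microglia (below 39 whichever library was left out) and 0 to 6 in choroid plexus cells (6 without female Tg2576). Depth limits *Ocln*, *Mfsd2a* and *Slc7a5* most, with 181 to 411 endothelial UMIs.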
